A study of Mus musculus with 2 samples.

Results

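The genes described here are 43 genes of DNA replication and S phase, taken by symbol from the gene tables of a single-cell RNA sequencing study of the mouse tongue epithelium. All 43 symbols were found, among 32285 genes in all. By role, 10 act in licensing and as parts of the replicative helicase, 5 control the passage from G1 into S phase, 3 supply deoxynucleotides, 10 work at the fork, 5 in repair, and 10 in chromatin assembly and histone supply. A licensing list of 9 genes (Mcm2 to Mcm7, Cdc6, Ccne1 and Ccne2) was set against a synthesis list of 3 genes (Rrm2, Tyms and Pcna).

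Tongue epithelium was taken from male B57BL/6 mice (the strain as spelled in the labels) aged 8 to 12 weeks at 2 Zeitgeber times, ZT0 and ZT12, by the usual convention lights on and lights off. The minced tissue was digested with TrypLE, a trypsin-like enzyme, and living cells that excluded the dye 7-AAD were sorted and made into 10x Genomics 3′ libraries. There was 1 library per time, and the sources used here do not give the number of mice behind each. By its title, the series addresses how the cell populations of this epithelium vary over the day. With 1 library per time no test was possible: every difference below is between 2 libraries and has no replicate check, and every 95% interval covers counting error only.

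Before S phase, the Mcm2 to Mcm7 complex is loaded onto origins with the help of Cdc6, a step called licensing, and cyclin E with its kinase then promotes the start of replication. During synthesis, ribonucleotide reductase and thymidylate synthase supply deoxynucleotides, and the sliding clamp Pcna holds polymerases on the template. In a stratified epithelium such as the tongue, division is largely confined to the basal layer, and cells that move up to form the flat surface or the filiform papillae leave the cell cycle.

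After filtering, 1593 cells with 49256011 UMIs (unique molecular identifiers, each standing for a captured transcript) remained at ZT0 and 2620 cells with 67059151 UMIs at ZT12, with medians of 28401 and 23088 UMIs per cell. Cells were clustered without the 43 genes. Of the 18 clusters, 4 were named basal-like (426 cells in the ZT0 library and 739 in the ZT12 library), 1 mitotic-like (174 and 24), 6 differentiated-like (596 and 1317) and 2 filiform-like (139 and 242), from marker genes. All 10 basal markers were present in basal-like cells, with summed levels of 23899 and 29776 CPM (the UMIs of a gene scaled to the total UMIs of its class), against 4006 and 5029 CPM in differentiated-like cells. The same sum was 19665 and 22022 CPM in filiform-like cells, of which Krt14 made up 16845 and 18812 CPM, while Krt15 was at 361 and 574 CPM there and at 6444 and 8979 CPM in basal-like cells. The 20 mitotic markers summed to 8676 and 6355 CPM in mitotic-like cells and to 230 and 202 CPM in basal-like cells. Among the leading genes of the mitotic-like cluster were also Hist1h2ap, Hist1h1b and Pclaf, which are genes of S phase, so the name covers dividing cells in general. The libraries stood apart in 4 clusters, each with over 90% of its cells from 1 library. In the basal-like class these were cluster 3 (1 cell at ZT0, 335 at ZT12) and cluster 8 (221 and 3), so that only clusters 2 (104 and 237) and 7 (100 and 164) held cells of both. The libraries shared 2 cell barcodes.

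The 43 genes were high in mitotic-like cells, lower in basal-like cells and lowest in the filiform-like and differentiated-like classes. The summed level of all 43 was 1271 CPM at ZT0 and 2214 CPM at ZT12 in basal-like cells. It was 3689 and 6621 CPM in mitotic-like cells, 377 and 417 CPM in differentiated-like cells, and 345 and 425 CPM in filiform-like cells. A gene was called higher or lower when its mean CPM over both sides was at least 5, its ratio at least 1.5-fold and the interval of the ratio free of 1. By this rule 36 of the 43 were higher in basal-like than in differentiated-like cells in both libraries, and none was lower; of all genes that reached 5 CPM, 28.7% were higher at ZT0 and 25.4% at ZT12. The 7 others (Cdc6, Cdc45, E2f8, Dscc1, Exo1, Blm and Rad51ap1) were below the minimum CPM in at least 1 library. Since the classes are clusters of the same cells, these contrasts describe the classes and test nothing. As sums, the licensing list fell more steeply from basal-like to differentiated-like cells than the synthesis list. Licensing UMIs were 6.81-fold higher in basal-like than in differentiated-like cells in the ZT0 library (95% interval 6.26 to 7.42) and 14.4-fold in the ZT12 library (13.6 to 15.2). For the synthesis list these ratios were 2.22 (2.06 to 2.40) and 3.31 (3.15 to 3.49). Most of the synthesis UMIs of differentiated-like cells were those of Pcna, at 50.5 and 54.4 CPM, where Rrm2 stood at 1.80 and 0.854 CPM. The ratios of the synthesis list are thus weighted towards Pcna and do not describe Rrm2.

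**Figure D1:**
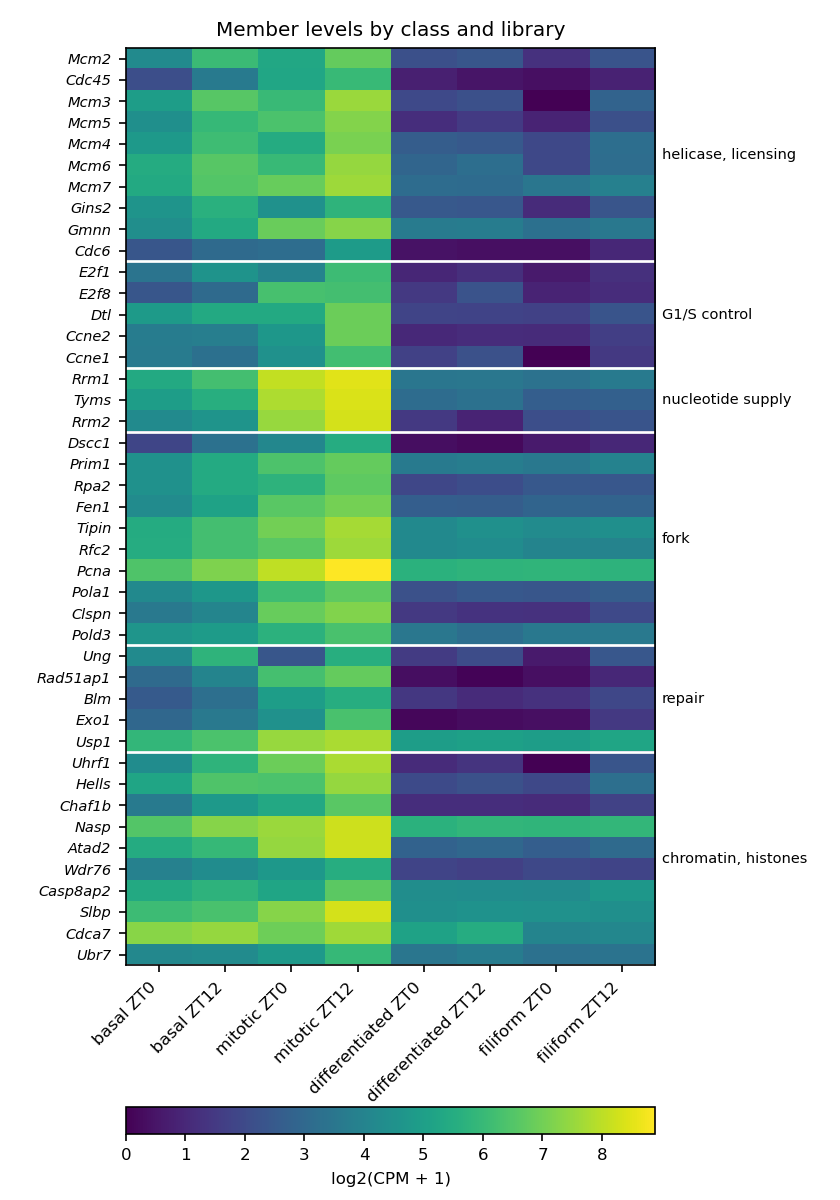
Levels of the 43 genes as log2(CPM + 1), by class and library; rows are genes grouped by role, and within a role ordered by their ratio of ZT12 to ZT0 in basal-like cells. Nearly every gene is highest in the mitotic-like columns, and most are brighter at ZT12 than at ZT0 in the basal-like columns; Ung is at 4.22 CPM in mitotic-like cells at ZT0. CPM from 3′ counts is compared along a row, not between rows.

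In basal-like cells, 29 of the 43 genes were higher at ZT12 and none was lower, where 3.19% of all 9623 genes that reached the minimum CPM were higher and 4.29% lower. All 43 reached the minimum. Their median log2 ratio was 0.82, where that of all genes was -0.03. The 14 that met neither rule were Ccne1, Ccne2, Dtl, Rrm2, Pola1, Pold3, Clspn, Usp1, Slbp, Casp8ap2, Atad2, Cdca7, Wdr76 and Ubr7, and among these Ccne1 alone had a ratio under 1. Because clusters 3 and 8 each belonged almost wholly to 1 library, the count was repeated without them. It was then 19 higher, all of them among the 29, and 2 lower, which were Ccne1 and Ccne2, where 3.19% of all genes were higher and 3.8% lower. The 10 that lost the call were Cdc6, E2f8, Rrm1, Tyms, Pcna, Rpa2, Fen1, Tipin, Exo1 and Rad51ap1. Within cluster 2 alone 11 were higher and 2 lower, again Ccne1 and Ccne2, where 3.43% of all genes were higher and 4.38% lower. Within cluster 7 alone 18 were higher and none lower, where the shares of all genes were 3.57% and 4.65%. Both of these splits were chosen after the data were seen. Mcm2, Mcm3, Mcm4, Mcm5, Rfc2, Ung and Uhrf1 were higher within each of the 2 clusters.

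All 10 genes of licensing and the helicase were higher at ZT12 in basal-like cells, and as a sum they were 2.53-fold higher (2.42 to 2.65). Mcm2, a subunit of the Mcm2 to Mcm7 helicase (ENSMUSG00000002870, chromosome 6, 88883474 to 88898780, mm10), measured 18.3 CPM in the ZT0 library and 66 CPM in the ZT12 library, a ratio of 3.60 (3.07 to 4.25). Mcm3 rose from 30.1 to 94.9 CPM (3.15-fold, 2.78 to 3.59) and Mcm5 from 20.4 to 61.9 CPM (3.04-fold, 2.60 to 3.56). The other subunits differed less: Mcm4 stood at 27.0 and 68.8 CPM, Mcm6 at 43.4 and 94.9 CPM, and Mcm7 at 41.4 and 89.5 CPM, with ratios of 2.55, 2.19 and 2.16. The interval of Mcm7 (1.93 to 2.42) lay wholly below that of Mcm5. Cdc45 and Gins2 belong to the active helicase at the fork. Cdc45 was scarce, at 3.36 CPM from 33 UMIs and 11.7 CPM from 164 UMIs, a ratio of 3.49 (2.39 to 5.24), and Gins2 was at 23.4 and 49.6 CPM (2.12, 1.82 to 2.47). Gmnn, which encodes geminin, the inhibitor of relicensing, was at 20.05 and 41.6 CPM (2.07, 1.76 to 2.45). Cdc6, the loader, was the least abundant of the 9 licensing genes in both libraries, at 4.17 and 7.37 CPM (1.77, 1.22 to 2.60).

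Among the genes that control entry into S phase the ratios split. E2f1, an activating E2F transcription factor, was at 9.67 and 23.0 CPM in basal-like cells (2.38-fold, 1.88 to 3.02). E2f8, a repressing E2F, was at 4.17 and 7.37 CPM (1.77, 1.22 to 2.60). The E cyclins did not follow the Mcm genes. Ccne1 was at 12.1 and 8.66 CPM, a ratio of 0.715 (0.550 to 0.928), short of the 1.5-fold limit, and Ccne2 was at 12.3 and 12.9 CPM (1.05, 0.826 to 1.33). Both were lower once the clusters of 1 library were left out: Ccne1 was then at 15.8 and 5.72 CPM (0.362, 0.244 to 0.531) and Ccne2 at 17.6 and 11.0 CPM (0.627, 0.459 to 0.856), while Mcm2 remained higher (2.60, 2.13 to 3.18). Dtl, the substrate receptor of a ubiquitin ligase that removes the licensing factor Cdt1, was at 27.8 and 40.9 CPM, a ratio of 1.47, just under the limit. Of the 9 licensing genes, the 6 Mcm genes and Cdc6 were therefore called higher and the cyclins were not. Without the clusters of 1 library the Mcm genes were still called, but Cdc6 was not (1.52, 0.963 to 2.45).

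The 3 genes of nucleotide supply showed smaller ratios than the Mcm genes. Rrm1, the large subunit of ribonucleotide reductase, was at 41.6 and 74.9 CPM (1.80, 1.60 to 2.02), and Tyms, thymidylate synthase, at 30.2 and 46.3 CPM (1.53, 1.33 to 1.76). Rrm2, the small subunit, whose level limits the enzyme in cycling cells, was at 18.2 and 23.5 CPM, and its ratio of 1.29 (1.07 to 1.56) did not meet the rule. Without the clusters of 1 library the ratio of Rrm2 was 0.861 (0.693 to 1.07) and neither Rrm1 (1.44) nor Tyms (1.19) was called, so that no gene of nucleotide supply was. At the fork 7 of 10 genes were higher; without the clusters of 1 library Rfc2, Prim1 and Dscc1 still were, and Pcna, Rpa2, Fen1 and Tipin, at ratios of 1.28 to 1.47, were not. Pcna was at 85.4 and 143 CPM (1.68, 1.55 to 1.82), and Rfc2, of the clamp loader, at 44.3 and 75 CPM (1.70, 1.51 to 1.90). Dscc1, of the alternative clamp loader used in cohesion, was low in both, at 2.65 CPM from 26 UMIs and 8.94 CPM from 125 UMIs (3.38, 2.20 to 5.37). Prim1, Rpa2, Fen1 and Tipin, which are a primase subunit, a single-strand binding protein, the flap endonuclease and a fork protection factor, had ratios between 1.74 and 1.96. Pola1 and Pold3, polymerase subunits, and Clspn, the checkpoint adaptor claspin, had ratios of 1.41, 1.18 and 1.41 and met neither rule.

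Of the 5 repair genes, 4 were higher. Ung, which removes uracil from DNA, was at 18.0 and 53.6 CPM (2.97-fold, 2.52 to 3.52). Rad51ap1, a factor of homologous recombination, was at 7.33 and 14.95 CPM (2.04), Blm, a RecQ helicase, at 4.78 and 8.58 CPM (1.79), and Exo1, an exonuclease, at 6.82 and 11.1 CPM (1.63, 1.21 to 2.20). Exo1 was the only called gene whose direction turned when clusters 3 and 8 were left out, to a log2 ratio of -0.03. Usp1, which deubiquitinates Pcna, was at 58.4 and 81.3 CPM, a ratio of 1.39 that missed the limit. In chromatin assembly and histone supply 4 of 10 were higher. Uhrf1, which guides maintenance DNA methylation, was at 18.8 and 53.5 CPM (2.84, 2.42 to 3.36), Hells, a chromatin remodeller, at 36.8 and 86.6 CPM (2.35, 2.09 to 2.65), and Chaf1b, of the histone chaperone CAF-1, at 11.6 and 26.8 CPM (2.31). Nasp, a chaperone of H3 and H4, was at 91.5 and 154 CPM (1.68). The histone mRNA factors Slbp and Casp8ap2 had ratios of 1.21 and 1.29, and Atad2, Wdr76, Cdca7 and Ubr7 had ratios of 1.42, 1.36, 1.13 and 1.12.

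**Figure D2:**
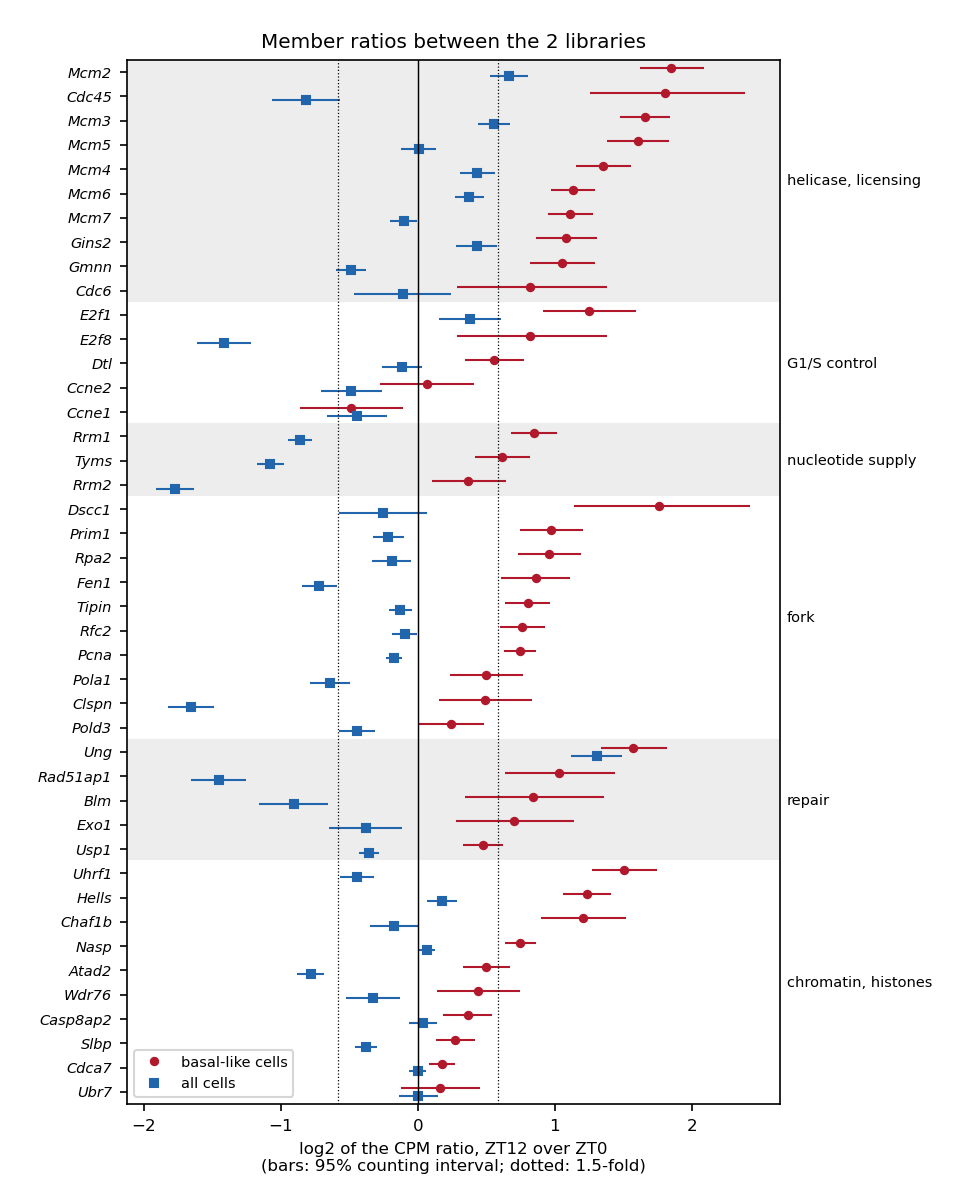
Log2 ratio of CPM at ZT12 over ZT0 for each of the 43 genes, in basal-like cells (red circles) and in all cells (blue squares), with 95% counting intervals; dotted lines mark 1.5-fold. The red circles lie to the right of the line at 0 for all genes but Ccne1, while the blue squares of Rrm2, Clspn, Rad51ap1 and E2f8 lie farthest to the left.

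Summed over the lists, licensing UMIs in basal-like cells were at 209 and 505 CPM, a ratio of 2.41 (2.30 to 2.54). Synthesis UMIs were at 134 and 213 CPM, a ratio of 1.59 (1.49 to 1.70), and the intervals do not overlap. The licensing share of the UMIs of both lists together was 61% (exact Clopper-Pearson 95% interval 59.3 to 62.6) and 70.3% (69.4 to 71.2) in basal-like cells. Without clusters 3 and 8 the ratios were 1.77 (1.67 to 1.88) for licensing and 1.28 (1.18 to 1.39) for synthesis. Cluster 2, the basal-like cluster with Ung, Mcm3, Hells and Mcm6 among its 15 leading genes although none of them was used to cluster, had licensing levels of 449 and 652 CPM. Cluster 7, led by Trabd2b, Sostdc1 and Nrp2, had 75.6 and 262 CPM, the larger ratio of the pair at 3.46 (2.91 to 4.14). Cluster 8 had 127 CPM at ZT0 and cluster 3 had 501 CPM at ZT12. The leading genes of cluster 8 included Ifitm3, Ifi27l2a, H2-Q7 and Cxcl9, which respond to interferon, and its part in the basal-like ratio was not tested beyond leaving it out.

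The promoters are shown for 3 licensing genes that moved together in basal-like cells and for Rrm2, which did not meet the rule there. In RefSeq windows of 300 bases (build GRCm38.p6), 250 before and 50 from the start site, 33 of the 43 genes had an entry; those without were Mcm4, Gmnn, Gins2, Ccne2, Rfc2, Tipin, Dscc1, Exo1, Usp1 and Atad2. An E2F-type motif (any of TTTGGCGC, TTTCGCGC, TTTCCCGC or TTTGCCGC on either strand) was present in 14 of the 33, or 42.4%, and in 2.6% of 27025 genes, a gene counting when any of its windows held a match. Of the licensing list 5 of 7 genes had a match (Mcm3, Mcm5, Mcm6, Mcm7 and Cdc6), and of the synthesis list 0 of 3. A match did not go with more frequent calls at ZT12. Of the 14 genes with a match, these 5, Hells and Uhrf1 were called higher in basal-like cells. Casp8ap2, Cdca7, Clspn, Dtl, Pola1, Pold3 and Ubr7 were not. Genes with a window but no match were mostly called higher. These were Mcm2, Cdc45, E2f1, E2f8, Rrm1, Tyms, Pcna, Rpa2, Prim1, Fen1, Ung, Blm, Rad51ap1, Chaf1b and Nasp. Only Ccne1, Rrm2, Slbp and Wdr76 among the genes without a match were not. A CCAAT box (CCAAT on either strand) was present in 22 of 33, or 66.7%, against 41.1% of all genes, and a CHR element (TTTGAA on either strand) in 6 of 33, or 18.2%, against 20.2%. The windows were chosen after the matches were seen. They are given 5′ to 3′ on the strand of the gene, with the matches to the E2F-type motif and the CCAAT box in capitals. Mcm3 lies at chr1:20820263-20820562 on the minus strand, Mcm5 at chr8:75109259-75109558 on the plus strand, Mcm6 at chr1:128359656-128359955 on the minus strand, and Rrm2 at chr12:24708004-24708303 on the plus strand.
Mcm3: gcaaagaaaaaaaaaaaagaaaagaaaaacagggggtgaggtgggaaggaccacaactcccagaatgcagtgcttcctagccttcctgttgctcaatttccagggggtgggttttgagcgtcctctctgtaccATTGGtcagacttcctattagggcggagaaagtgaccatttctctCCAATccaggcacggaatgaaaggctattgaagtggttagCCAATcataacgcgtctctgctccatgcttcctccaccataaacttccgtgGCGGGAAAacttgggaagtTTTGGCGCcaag
Mcm5: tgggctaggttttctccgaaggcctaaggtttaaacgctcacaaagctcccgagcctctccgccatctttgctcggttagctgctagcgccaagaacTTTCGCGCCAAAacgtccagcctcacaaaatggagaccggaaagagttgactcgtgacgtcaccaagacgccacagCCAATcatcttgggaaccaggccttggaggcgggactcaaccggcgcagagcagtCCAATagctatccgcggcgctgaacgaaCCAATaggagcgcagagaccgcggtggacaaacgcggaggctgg
Mcm6: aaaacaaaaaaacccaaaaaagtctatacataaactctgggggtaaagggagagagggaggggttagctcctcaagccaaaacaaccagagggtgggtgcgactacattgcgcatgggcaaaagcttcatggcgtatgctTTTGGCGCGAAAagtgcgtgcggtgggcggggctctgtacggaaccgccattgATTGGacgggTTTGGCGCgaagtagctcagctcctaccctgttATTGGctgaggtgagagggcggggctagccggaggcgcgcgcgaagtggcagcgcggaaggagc
Rrm2: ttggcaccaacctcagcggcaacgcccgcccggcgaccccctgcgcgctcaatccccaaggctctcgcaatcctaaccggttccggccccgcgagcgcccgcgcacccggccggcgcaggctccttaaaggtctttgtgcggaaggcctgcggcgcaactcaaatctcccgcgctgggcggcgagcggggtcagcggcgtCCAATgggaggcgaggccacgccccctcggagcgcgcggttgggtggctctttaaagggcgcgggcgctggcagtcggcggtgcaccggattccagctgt
Mcm3 had 2 E2F-type matches, both downstream of the start site, at positions 20 and 39, and 3 CCAAT boxes. In Mcm5, 1 match on each strand overlapped at positions -153 and -149, so that a single stretch counted as 2 matches, and 3 CCAAT boxes were found. Mcm6 had 3 matches, at positions -110, -106 and -47, the first and second of which overlapped, and 2 CCAAT boxes. Rrm2 had no E2F-type match and 1 CCAAT box at position -50. A match describes these letters and is not evidence of a bound factor, and its absence concerns this window and these letters only.

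Over all cells the picture differed from that in basal-like cells. Of the 39 genes that reached the minimum CPM, 2 were higher at ZT12 (Mcm2 and Ung) and 10 lower (Cdc45, E2f8, Rrm1, Rrm2, Tyms, Pola1, Fen1, Clspn, Rad51ap1 and Atad2), where 1.16% of all genes were higher and 5.46% lower. Cdc6, Dscc1, Exo1 and Blm were below the minimum. Without the clusters of 1 library 20 were lower, the 10 above among them, and Ung alone was higher, where 6.73% of all genes were lower and 1.56% higher. Rrm2 was at 31.2 and 9.17 CPM, a ratio of 0.294 (0.267 to 0.323), the smallest of the 43. Clspn was at 19.6 and 6.22 CPM (0.318) and Tyms at 43.6 and 20.7 CPM (0.474). Mcm2 was at 12.5 and 19.8 CPM (1.59) and Ung at 6.21 and 15.3 CPM (2.47, 2.17 to 2.82). Pcna, at 89.4 and 79.2 CPM, and Mcm5, at 17.3 and 17.4 CPM, differed by less than 1.5-fold. The lists moved apart: licensing UMIs were at 135 and 157 CPM (1.16, 1.13 to 1.2), and synthesis UMIs at 164 and 109 CPM, or 1.51-fold lower at ZT12 (1.46 to 1.56). Of the 10 genes that were lower in all cells, 6 were higher in basal-like cells: Cdc45, E2f8, Rrm1, Tyms, Fen1 and Rad51ap1.

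The mitotic-like class made up 10.9% of cells at ZT0 and 0.916% at ZT12. Its size depended on the processing: under the other cell filters, doublet removal and clusterings it held 157 to 197 cells at ZT0 and 22 to 87 at ZT12, the highest with the top 5% of doublet scores removed. In the clustering reported here it held 56.3% of all synthesis UMIs at ZT0 and 10.2% at ZT12, and 80.8% and 34.0% of those of Rrm2. For the licensing list these shares were 47.4% and 7.34%, while basal-like cells held 30.9% and 66.9%. With the mitotic-like class left out, an alternative added after the data were seen, 0 genes were lower and 10 higher at ZT12, where 2.82% of all genes were lower and 1.17% higher, and the synthesis list was 1.19-fold higher (1.14 to 1.24).

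Mitotic-like cells differed from basal-like cells more in synthesis than in licensing, and this held in both libraries. At ZT0, 37 of the 43 were higher in mitotic-like cells and 1 lower, and at ZT12 40 were higher and none lower; the corresponding shares of all genes were 13.8% and 14.5% at ZT0 and 12.2% and 8.06% at ZT12. Synthesis UMIs were 4.96-fold higher (4.67 to 5.28) at ZT0 and 5.30-fold (4.88 to 5.74) at ZT12. Licensing UMIs were 2.20-fold (2.08 to 2.32) and 2.33-fold (2.16 to 2.51) higher. No ratio between times was called within the mitotic-like class, whose 24 cells at ZT12 were under the minimum of 30. Under 4 of the other settings the class held 32 to 87 cells at ZT12, and the ratio was not computed there.

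Rrm2 rose from 18.2 CPM in basal-like to 181 CPM in mitotic-like cells at ZT0 (9.94-fold, 8.49 to 11.7), and from 23.5 to 317 CPM at ZT12 (13.5-fold, 11.3 to 16.1). Tyms differed 7.37-fold and 7.28-fold, and Pcna 3.05-fold and 3.32-fold. The genes at least 5-fold higher in both libraries were Cdc45, E2f8, Rrm2, Tyms, Clspn, Blm and Rad51ap1, of which none is an Mcm gene. The Mcm genes spanned 1.46-fold for Mcm6 to 3.99-fold for Mcm5 at ZT0, and 1.65-fold for Mcm2 to 2.43-fold for Mcm5 at ZT12. The E cyclins differed between the libraries: Ccne1 was 1.78-fold higher at ZT0 and 8.41-fold at ZT12, and Ccne2 2.06-fold and 9.19-fold, the latter values from 48 and 78 UMIs in mitotic-like cells. Ung went the other way at ZT0, from 18.0 CPM in basal-like to 4.22 CPM in mitotic-like cells, a ratio of 0.235 (0.153 to 0.349), and was at 53.6 and 47.0 CPM at ZT12. Gins2 was level, with ratios of 0.915 (0.739 to 1.13) and 1.10 (0.765 to 1.54). Mcm6, Dtl, Casp8ap2 and Cdca7 were the others not called higher in both. The order of the 43 ratios was shared between the libraries to a rank correlation of 0.71 over the 43 genes, whose cells come from the same clusters.

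**Figure D3:**
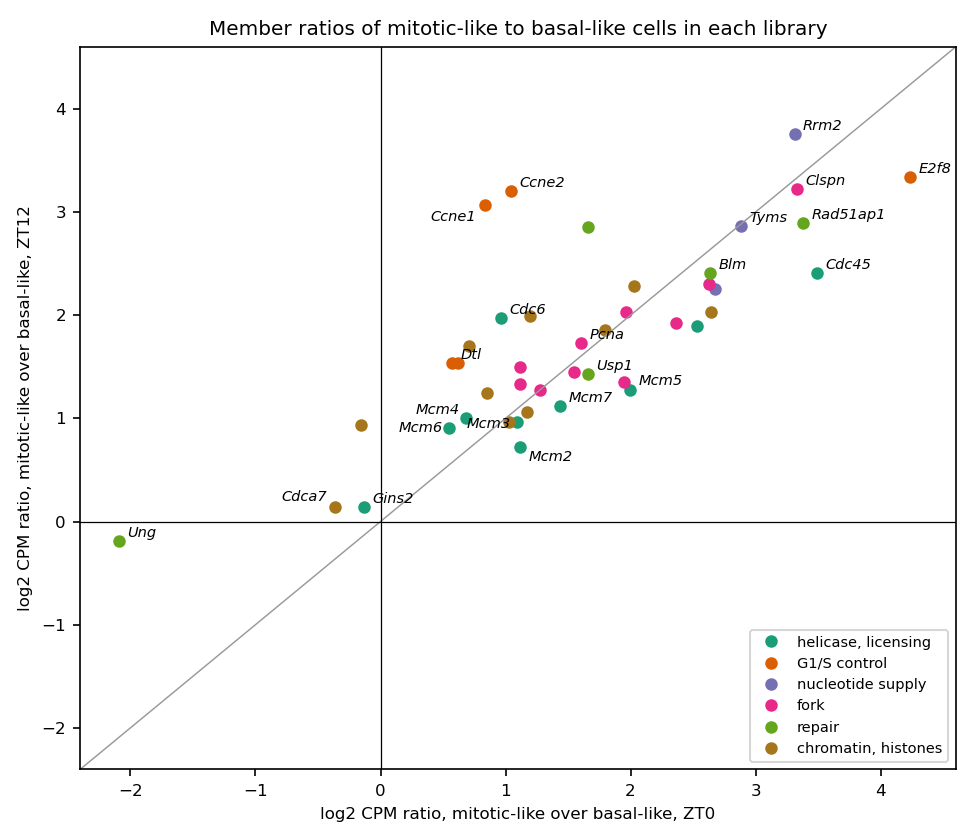
Log2 ratio of CPM in mitotic-like over basal-like cells, ZT0 on the horizontal and ZT12 on the vertical axis; each point is 1 of the 43 genes, coloured by role, and the grey line marks equal ratios. Rrm2, Tyms, Clspn, E2f8 and Rad51ap1 sit at the upper right, the Mcm genes nearer the centre, Ccne1 and Ccne2 above the line and Ung at the lower left.

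The licensing share of the UMIs of both lists followed the same order. It was 40.9% (39.8 to 42.0) at ZT0 and 51.0% (48.4 to 53.5) at ZT12 in mitotic-like cells, below the basal-like shares in each library. In differentiated-like cells it was 33.8% and 35.3%, and in filiform-like cells 23.2% and 43.4%. These low shares rested on Pcna: with Pcna left out they were 76.1% and 78% in differentiated-like cells, and 81.2% and 87.9% in basal-like against 53.2% and 64.2% in mitotic-like cells. The order of basal-like above mitotic-like was therefore the same with and without Pcna, while the place of differentiated-like cells was not.

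For the counts per cell, each cell was thinned to the same number of UMIs, below which 132 cells at ZT0 and 261 at ZT12 fell and were left out. Basal-like and mitotic-like cells were ordered by their summed UMIs of the 20 mitotic markers, none of which is among the 43. At ZT0 the mean licensing count was 1.65 UMIs in the 340 cells with 0 to 4 marker UMIs, 6.30 in the 56 cells with 5 to 19, 8.14 in the 69 cells with 50 to 99 and 3.99 in the 91 cells with 100 or more. The synthesis counts in the same bins were 1.15, 3.84, 11.7 and 5.89. With Pcna in the synthesis list, licensing thus led below 20 marker UMIs and synthesis above 50. At 50 to 99, Pcna made up 4.45 of the synthesis mean, Rrm2 3.72 and Tyms 3.54. Without Pcna, licensing was above synthesis in that bin. All cells of the bins from 50 upwards were mitotic-like, and 1 of the 56 cells with 5 to 19. The order of the lists at ZT0 thus largely repeats the contrast of the classes. At ZT12 the first and second bins held 571 and 75 cells, with licensing means of 4.98 and 11.7 and synthesis means of 1.74 and 6.45, and the bin of 20 to 49 held 20 cells with means of 17.2 and 14.0. The bin of 20 to 49 at ZT0 held 15 cells and the upper bins at ZT12 held 11 and 6, too few to read a trend from.

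Single genes differed in the bin of marker UMIs where they were highest, bins under 20 cells left aside. At ZT0, 34 of the 43 were highest at 50 to 99 marker UMIs, 8 at 5 to 19 (Cdca7, Gins2, Dtl, Casp8ap2, Ccne1, Ung, Exo1 and E2f1) and Rad51ap1 at 100 or more. These are the largest means, and not all stand clear of the other bins. E2f1 and Exo1 had 16 and 19 UMIs in their highest bin. For Ccne1 the interval there was 0.391 to 0.807, which held its mean at 50 to 99. Ung had means of 0.132, 0.446, 0.058 and 0.022 UMIs per cell in the 4 bins with at least 20 cells, and Gins2 0.197, 0.750, 0.203 and 0.209. Ccne1 had 0.0765, 0.571, 0.420 and 0.0769. Rrm2 had 0.0971, 0.804, 3.72 and 1.37, and Mcm3 0.241, 1.00, 1.10 and 0.516. From the bin of 5 to 19 to that of 50 to 99, the mean of Mcm3 thus moved little while that of Rrm2 climbed. At ZT12 the 3 bins with at least 20 cells ended at 49 marker UMIs, and 42 of the 43 were highest in the last of them.

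**Figure D4:**
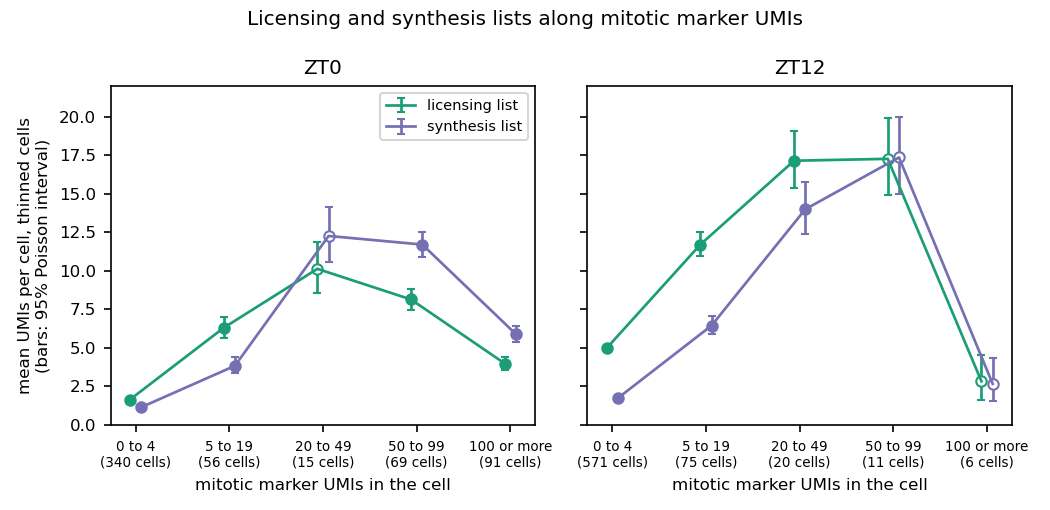
Mean UMIs per cell of the licensing list (green) and the synthesis list (violet) in basal-like and mitotic-like cells thinned to equal depth, by bins of mitotic marker UMIs, for each library; bars are 95% Poisson intervals and open symbols mark bins under 20 cells. Licensing lies above synthesis in the low bins of both libraries, and synthesis above licensing in the upper bins at ZT0. The synthesis list includes Pcna, without which licensing was the higher at ZT0 in the bin of 50 to 99.

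A cell was called licensing-high above 3 licensing UMIs and synthesis-high above 4 synthesis UMIs, the 99th percentile of 1840 differentiated-like cells, which serve as the background. Among basal-like cells 75 of 401 were licensing-high in the ZT0 library (18.7%, 15 to 22.9) and 312 of 659 in the ZT12 library (47.3%, 43.5 to 51.2), a ratio of 2.53 (1.96 to 3.30). Synthesis-high cells were 28 of 401 (6.98%) and 93 of 659 (14.1%), a ratio of 2.02 (1.31 to 3.20). Cells above the same percentile of mitotic markers were 15.2% and 13.4%, with a ratio of 0.878 (0.626 to 1.24). The limit cuts a range: 19 basal-like cells lay at 3 licensing UMIs and 7 at 4 in the ZT0 library, and 37 and 16 in the ZT12 library. In cluster 2 the licensing-high shares were 49.5% and 59.0%, in cluster 7 they were 3.13% and 24.6%, in cluster 8 at ZT0 10.3% and in cluster 3 at ZT12 48.5%. Median licensing counts per basal-like cell were 1.0 and 3.0 UMIs.

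High synthesis counts came almost always with high licensing counts in basal-like cells. Of the synthesis-high cells, 25 of 28 at ZT0 and 93 of 93 at ZT12 were also licensing-high. Of the licensing-high cells, 25 of 75 at ZT0 and 93 of 312 at ZT12 were synthesis-high. With 28 and 93 synthesis-high cells in all, these counts could not exceed 28 of 75 and 93 of 312. Those totals depend on the limit chosen for each list, so the smaller shares do not show licensing without synthesis. Synthesis-high cells without high licensing counts were 3 of 401 at ZT0 and 0 of 659 at ZT12, which allows a share of up to 0.455% (3 counts of the total). In mitotic-like cells at ZT0, 99 of 170 were licensing-high and 108 of 170 synthesis-high, with 88 both, 20 synthesis-high only, 11 licensing-high only and 51 neither. At ZT12 18 of the 24 mitotic-like cells were both and 6 neither. Mitotic markers were above their limit in 16 of 25 basal-like cells that were high for both lists at ZT0 and in 49 of 93 at ZT12, but in 12 of 50 and 14 of 219 of those that were licensing-high only.

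**Figure D5:**
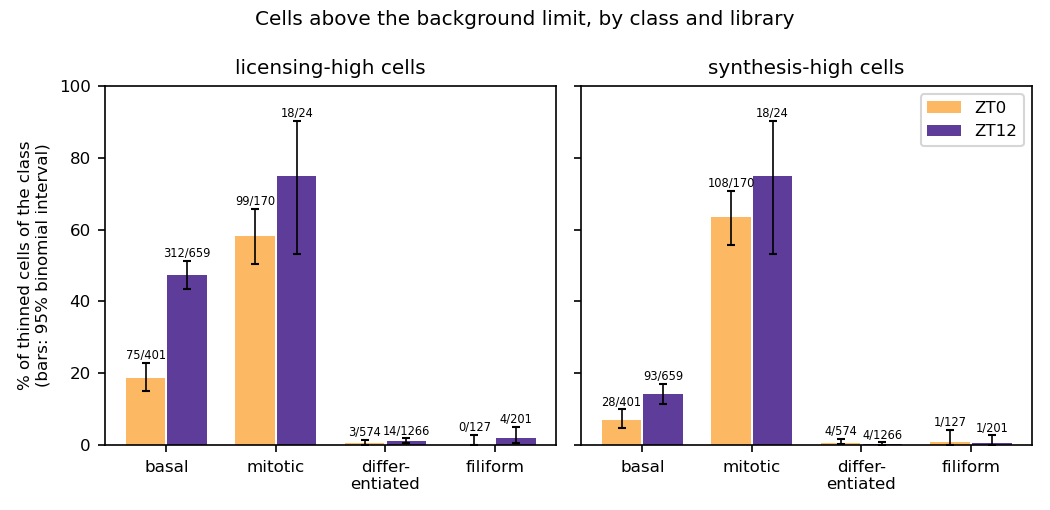
Share of thinned cells that were licensing-high (left) and synthesis-high (right), by class and library, with exact 95% binomial intervals; numbers above the bars are cells. The basal-like bars are 18.7% at ZT0 and 47.3% at ZT12 for licensing and 6.98% and 14.1% for synthesis, and the differentiated-like bars lie near the 1% that the limit itself sets.

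Basal-like cells with a UMI of Rrm2 or Tyms had Mcm3 in a larger share than cells without. As a background for the Mcm2 shares given last, Mcm2 had a UMI in 4.36% and 4.50% of differentiated-like cells thinned to the same depth. In basal-like cells it had one in 14.7% and 43.2%. No such background is given for Mcm3. Of the 44 ZT0 cells with an Rrm2 UMI, 54.5% had Mcm3, against 14.3% of the cells without Rrm2, and of the 82 at ZT12 86.6% had Mcm3, against 35.9%. Cells with Tyms had Mcm3 in 40.7% at ZT0 and 66% at ZT12, against 12.7% and 31.3% of cells without. Ccne1 was found in 34.1% of Rrm2 cells at ZT0 and 24.4% at ZT12, against 6.72% and 6.24% of the others. For Tyms the shares with Ccne1 were 22.1% against 6.35% at ZT0, and 10.2% (6.42 to 15.2) against 7.73% (5.44 to 10.6) at ZT12, where the intervals overlap. The Mcm genes went together in the same way. Among cells with Mcm3, 48.0% had Mcm2 at ZT0 and 80.6% at ZT12, against 7.06% and 16.0% of cells without Mcm3.

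As Spearman correlations across cells, given as a description since all cells of a library share it, the mean over the 36 licensing pairs in basal-like cells was 0.32 at ZT0 (401 cells) and 0.34 at ZT12 (659 cells). Over the 27 pairs between the lists it was 0.29 and 0.35, and over the 3 synthesis pairs 0.28 and 0.40. The 15 pairs among Mcm2 to Mcm7 had means of 0.38 and 0.54. The summed lists were correlated at 0.44 and 0.63. Ccne1 stood out at ZT12, with a correlation of 0.12 with the summed UMIs of the other licensing genes. The Mcm genes, each also left out of its own sum, had 0.58 to 0.73. Ung, which is outside the list, had 0.69 with the full licensing sum. In the 170 mitotic-like cells of ZT0, the licensing and synthesis sums were correlated at 0.78 with each other and at -0.55 and -0.56 with the mitotic marker sum. Ubr7 had correlations of 0.08 and 0.16 with the licensing sum in basal-like cells, the lowest of the 43 at ZT0.

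In differentiated-like and filiform-like cells few of the genes were called between the times. In differentiated-like cells 18 genes reached the minimum CPM and 0 were higher or lower, where 1.75% of all genes were higher and 2.59% lower. With shares this small, 0 of 18 does not set these genes apart from others. In filiform-like cells 20 reached it, 3 were higher at ZT12 (Mcm4, Mcm6 and Hells) and 0 lower, where 2.54% of all genes were higher and 3.31% lower. Mcm4 was at 2.82 CPM from 10 UMIs and 8.23 CPM from 42 UMIs (2.92, 1.44 to 6.52), and Mcm6 at 2.82 and 8.03 CPM from 10 and 41 UMIs. Mcm3, Ccne1 and Uhrf1 had 0 UMIs in the 139 filiform-like cells at ZT0 and 31, 9 and 21 UMIs at ZT12. A few cells held much of the licensing signal of this class at ZT12: in thinned cells, 4 of 201 were licensing-high, with a mean of 9.5 UMIs each, where the mean over all 201 was 0.537 and that over the 127 cells at ZT0 was 0.213. With these cells included, the licensing list was at 19.5 and 48.2 CPM (2.47, 1.89 to 3.28) and the synthesis list at 64.4 and 62.9 CPM (0.977, 0.822 to 1.16). Against differentiated-like cells of the same library, Cdca7, a partner of Hells, was lower in filiform-like cells in both, at 15.2 against 33.6 CPM at ZT0 and 16.5 against 44.3 CPM at ZT12, where 9.59% and 9.41% of all genes were lower. No filiform-like cell of 127 was licensing-high at ZT0, which allows a share of up to 2.36% (3 counts of the total).

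Of 67 further genes of replication, 58 reached the minimum CPM in basal-like cells, and 26 were higher at ZT12 and 1 lower. This count and the ratios below include the clusters of 1 library and were not repeated without them. Of all genes that reached it there, 3.19% were higher and 4.29% lower. Timeless, the partner of Tipin at the fork, was at 7.53 and 24.1 CPM (3.20, 2.48 to 4.18), Pold1, the catalytic subunit of polymerase delta, at 8.14 and 21.3 CPM (2.62), Lig1, DNA ligase I, at 28.3 and 71.1 CPM (2.51), and Tk1, thymidine kinase, at 15.7 and 37.8 CPM (2.41). E2f2, another activating E2F, was the gene that was lower, at 12.0 and 7.80 CPM (0.649, 0.496 to 0.850). By group, 13 of 20 tested fork genes, 4 of 15 origin genes, 3 of 8 nucleotide genes, 4 of 7 chromatin genes and 2 of 8 genes of G1 and S control were higher. Over all cells 0 of the 54 tested were higher and 9 lower, where 1.16% of all genes were higher and 5.46% lower.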

How the data were processed

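The authors deposited raw UMI counts per gene and barcode for both libraries. Per the submitters' processing notes they used Cell Ranger 2.1.1 and mm10, while per the file headers the matrices came from Cell Ranger 4.0.0; the sources used here do not give the annotation release. The counts were not corrected for free RNA, and 3′ counts do not scale with transcript length. Barcodes with fewer than 500 genes or 10% or more mitochondrial UMIs were removed (129 and 191). Scrublet, run through scanpy 1.11.5, called 0.25% and 0.304% of cells, so doublets were in effect not removed.

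Cells of both libraries were clustered without integration on 2000 variable genes, leaving out the 43 members and mitochondrial, ribosomal, heat shock, immediate early, clock and sex-linked genes, with 30 principal components, 15 neighbours and Leiden resolution 1 (leidenalg 0.10.2). Clusters were named from marker lists by a scoring rule set after the clusters were seen; 3 stayed unnamed (clusters 9, 13 and 14), and small simple epithelial-like and immune-like classes were not described. The members, the role lists and the wider lists were chosen with earlier results of these data known. UMIs were summed per class and library as CPM with exact Poisson intervals, ratios carry exact conditional binomial 95% intervals, and shares carry exact Clopper-Pearson intervals. Ratios between times were called only in classes with at least 30 cells in each library. All members were named, with full values for those of at least 5 CPM in basal-like or mitotic-like cells, and of the wider lists up to 4 genes in each direction with the largest called ratio. The calling rule was tested on simulated counts, and the thinning on cells of these data against the expected sums. Alternatives covered the cell filter, doublets, clustering, scaling (including edgeR 4.0.16 TMM), thresholds, thinning and the clusters of 1 library. Gene positions are from GENCODE M21, and promoter sequences from RefSeq.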

Additional observations from a re-analysis of the deposited data

How the results depend on the processing

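With 1 library per time, the animals, the library and the time cannot be told apart, and no replicate could be left out. No paired analysis was possible because the groups hold 1 library each and share no replicate numbers. Clusters 3, 8, 11 and 12 had over 90% of their cells from 1 library. Without them 19 of the genes were higher in basal-like cells, against 29, and 20 were lower in all cells, against 10. The log2 ratios of the lists in basal-like cells were 0.82 for licensing and 0.36 for synthesis, against 1.27 and 0.67, the ratio of licensing-high shares was 1.83, and Exo1 turned to -0.032. With the top 5% of doublet scores removed, the log2 ratios of the lists were 1.39 and 0.56, that of Rrm2 was -0.19, and the licensing share was 73.3% in basal-like cells at ZT12 and 42.5% and 57.7% in mitotic-like cells. Within cluster 2 alone 11 genes, and within cluster 7 alone 18, were higher. A limit of 2-fold left 16 higher in basal-like cells and 5 lower in all cells. In all cells 4 were lower with a minimum of 20 CPM, 6 with a mean over cells and 0 without the mitotic-like class. No share of all genes was recorded for the 2-fold limit, the minimum of 20 CPM or the mean over cells. Whether those smaller counts concern the members or only the changed rule therefore cannot be told. Without Pcna the licensing share was 81.2% and 87.9% in basal-like and 53.2% and 64.2% in mitotic-like cells; with the Mcm genes as the only licensing genes it was 57.4%, 69.1%, 37.8% and 45.8%. At the lower thinning depth, the mean correlations were 0.208 (ZT0) and 0.224 (ZT12) within licensing and 0.242 between the lists at ZT12. Without thinning they were 0.473 and 0.469 within licensing, 0.414 and 0.456 between the lists, and 0.472 within synthesis at ZT12. Other cell filters, Leiden resolutions, TMM scaling and the seed moved no count of calls by over 1.5 times. Of 344 log2 ratios of single genes under alternatives, 309 were within 0.3 of the value reported.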
